A study of Mus musculus with 4 samples.

Results

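SOX2 was bound, in all 3 immunoprecipitated (IP) libraries of mouse cortex, at 1749 intergenic regions that lay more than 1 kb and at most 50 kb from a protein-coding gene. They were found by pooling the peaks of the 3 libraries, merging peaks that shared at least 1 bp in chains, and keeping merged regions with a peak from every library. A kept region was counted here when its centre lay outside every RefSeq protein-coding gene span of the mm10 build and within that distance of the nearest one. The 1749 near-gene intergenic regions made up 18.7% of the 9334 reproducible regions, out of 27083 merged regions in all. Of the other reproducible regions, 4157 had their centre inside a protein-coding span and over 1 kb from any span end (intragenic). Another 1847 had their centre within 1 kb of a span end, inside or outside the gene (gene-end). The remaining 1581 lay more than 50 kb away (far intergenic).

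The study used chromatin immunoprecipitation followed by sequencing (ChIP-seq), in which an antibody enriches the DNA that a protein occupies and unselected DNA, the input, serves as the control. All 4 samples, 3 IP and 1 input, came from the cortex of wild-type male C57BL/6 mice at 2 months of age, and the IPs used a rabbit polyclonal antibody against SOX2. A label tag lists SOX2 as transduced for every sample, the input too; this does not match wild-type tissue and was not used. Nothing in the labels says that the IPs came from separate animals or chromatin preparations, so the spread between libraries may be technical.

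SOX2 belongs to the SOX transcription factors and binds DNA through a high-mobility-group domain and bends it. In the brain it is known for keeping neural stem cells undifferentiated, and in the adult cortex it is also made by astrocytes. Regulatory elements such as enhancers often lie outside genes and can act on a promoter at a distance, so the gene nearest to a bound region is an assignment by position and does not show which gene, if any, the region controls.

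Sequence was available for the stretches where a region overlapped a RefSeq promoter window (300 bases around a transcript start, GRCm38.p6, whose coordinates are those of mm10). The 6 strongest regions with a SOX core in such an overlap are shown because they let the bound DNA be read directly. Some stronger regions, among them those at Gm42808 and Gm36023, had no core in their overlap and are not shown. Each sequence is the overlap of region and window, 5′ to 3′ on the strand of the non-coding transcript that starts there. Capitals mark ACAAAG or ACAATG on either strand, so CTTTGT and CATTGT are capitals too.
2810410L24Rik: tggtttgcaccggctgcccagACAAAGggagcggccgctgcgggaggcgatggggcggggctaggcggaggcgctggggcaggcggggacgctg
Gm35116: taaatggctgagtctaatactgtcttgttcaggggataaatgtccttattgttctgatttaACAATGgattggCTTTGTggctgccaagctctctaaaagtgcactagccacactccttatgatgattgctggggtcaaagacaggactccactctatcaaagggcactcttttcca
Gm46609: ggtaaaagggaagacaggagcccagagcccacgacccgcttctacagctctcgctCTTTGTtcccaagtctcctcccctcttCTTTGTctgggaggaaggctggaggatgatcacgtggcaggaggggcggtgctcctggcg
Gm34455: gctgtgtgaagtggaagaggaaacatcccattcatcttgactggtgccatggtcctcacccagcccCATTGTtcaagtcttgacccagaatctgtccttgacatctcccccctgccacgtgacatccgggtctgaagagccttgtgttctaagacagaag
Gm31600: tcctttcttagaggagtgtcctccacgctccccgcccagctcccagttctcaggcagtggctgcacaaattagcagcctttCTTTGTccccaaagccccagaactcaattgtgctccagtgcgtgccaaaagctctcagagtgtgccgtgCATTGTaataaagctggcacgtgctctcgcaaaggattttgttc
1700113A16Rik: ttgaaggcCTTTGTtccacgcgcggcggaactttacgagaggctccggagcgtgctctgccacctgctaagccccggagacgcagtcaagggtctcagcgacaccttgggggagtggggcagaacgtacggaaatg

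The 2810410L24Rik overlap is chr11:120190013-120190106 on the minus strand, and its region, nearest to the amino acid transporter gene Slc38a10 at 38.8 kb, held 11.6, 17.9 and 13.6 normalized tags in IP libraries 1, 2 and 3. A normalized tag is the authors' unit of strength: the placed reads (tags) of a peak after bringing every library to 10000000 tags. The Gm35116 overlap, chr14:103778710-103778886 on the plus strand, held 11.8, 10.8 and 15 normalized tags and lay 35.8 kb downstream of Ednrb, which encodes an endothelin receptor of astrocytes. The Gm46609 overlap, chr17:87613494-87613635 on the minus strand, held 13.8, 12.3 and 10 normalized tags upstream of the cell adhesion gene Epcam. These 3 regions were of similar strength, and each had its highest value in a different library.

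The Gm34455 overlap, chr17:26504434-26504593 on the minus strand, held 11.3, 14.8 and 9.07 normalized tags and lay 1.08 kb from Dusp1, a phosphatase of MAP kinases. The Gm31600 overlap, chr13:37761377-37761570 on the plus strand, held 12.1, 10.5 and 9.79 normalized tags upstream of the zinc finger gene Rreb1. The 1700113A16Rik overlap, chr3:88177900-88178035 on the minus strand, held 13.5, 9.85 and 8.84 normalized tags. Its region lay 5.91 kb downstream of Mef2d, the nearest gene. It also lay 37.6 kb from the microRNA gene Mir9-1, whose surroundings are described further on. All 6 regions were above the median of the near-gene regions in every library and below the 25 strongest.

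In all, 58 near-gene regions touched 65 promoter windows of 59 genes, and all 59 were long non-coding RNA (lncRNA) genes, since the rule keeps regions away from protein-coding spans. A SOX core stood inside the overlap for 21 of the 58 regions. Over the touched windows, the overlaps with near-gene regions held 33 cores in 9716 bases, or 3.40 per kb, and the rest of the same windows held 11 in 9784 bases, or 1.12 per kb. All lncRNA promoter windows together held 1.44 cores per kb. At gene-end regions the density was 1.59 per kb inside the region and 0.476 per kb in the rest of the windows, and at far intergenic regions it was 4.16 and 1.66 per kb. SOX cores were thus denser inside the bound part of the touched windows in all 3 classes; a window touched by more than 1 region, or a region touching several windows, counted each time.

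Counted by window, ACAAAG or ACAATG stood in 31 of the 65 touched windows (47.7%), against 33.9% of the 11588 lncRNA windows and 28.6% of all 32851 windows. Of the 1498 windows touched by gene-end regions 27.8% held it, no more than the share of all windows. The other motifs were searched in the same way, whole windows on both strands, and a long motif can contain a short one. ATGCAAAT, the octamer of POU factors, stood in 6.15% of the touched windows against 1.87% of lncRNA windows. TGGCA, a short nuclear factor I motif, stood in 61.5% against 53.9%, and the full palindromic nuclear factor I motif in 0 against 0.0431%. The E-boxes CAGCTG and CAGATG stood in 10.8% and 13.8% against 17.7% and 21.8%, and CACGTG in 13.8% against 5.89%. GTTGCC of RFX factors stood in 15.4% against 12.3%, CCACCC of Kruppel-like factors in 36.9% against 27.6%, and CCGGAAGT of ETS factors in 3.08% against 1.58%. TGANTCA of AP-1 stood in 0 of the 65 touched windows against 9.31% of lncRNA windows. These shares describe letters in windows, not binding sites, and they were not tested.

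The near-gene regions were short and most were modest in strength. Their median length was 201 bp, from 159 to 511 bp, and their median distance to the nearest protein-coding span was 14.8 kb. The mean strength over the 3 libraries ran from 3.83 to 48.9 normalized tags with a median of 7.59. A mean of at least 20 normalized tags was reached by 85 regions and a mean of at least 10 by 521 (29.8%), while 171 lay under 5. In 53 regions (3.03%) the chain of peaks had no base common to all 3 libraries. Chromosome 18 held 57 of the regions, the X chromosome 24 and the Y chromosome 0.

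Within a region the libraries differed by a median SD of 17.0% of the mean (n = 3). IP libraries 1 and 2 were alike, with a median ratio of 1.01. IP library 3 was lower: the ratio of library 1 to library 3 was 1.20, with library 1 higher in 75.9% of regions, and that of library 2 to library 3 was 1.16, with library 2 higher in 73.4%. A region differed by more than 1.5-fold between libraries 1 and 2 in 12.1% of cases, between 1 and 3 in 18.6% and between 2 and 3 in 19.3%. The libraries held 36330529, 32492927 and 41875666 tags and 17730, 17628 and 15891 peaks, of which 3200, 3189 and 2957 were near-gene intergenic. A peak needed at least 14, 13 and 16 tags, and 1 tag is worth 0.275, 0.308 and 0.239 normalized tags, so most regions rest on few reads.

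The strongest region lay 2.74 kb from Sox21, a SOX family gene of neural progenitors that is known to oppose the progenitor-keeping SOX proteins, and held 51.7, 56.9 and 38 normalized tags (chr14:118230322-118230672). It ranked at the top in libraries 1 and 2 and in place 4 in library 3. Its peaks formed a chain of 351 bp with no base shared by all 3 libraries, so these values may come from neighbouring summits. Its fold over the input was 42.6, 31.3 and 125, which varied more between libraries than its tags did. The next gene on the other side, Gpr180, began 66.3 kb away.

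The next strongest region, 18.3 kb upstream of the zinc finger transcription factor gene Klf13 and inside the lncRNA gene Gm39024, held 49, 40.6 and 35.1 normalized tags (chr7:63957153-63957311). Klf13 had 2 more regions, of 18.2 ± 5.05 and 4.17 ± 0.533 normalized tags (SD, n = 3). The region 9.91 kb downstream of Cst3, the gene of the secreted protease inhibitor cystatin C, held 32.5, 36 and 40.1 (chr2:148861724-148861900). It was the top region of library 3, the library that was lower elsewhere, and a further Cst3 region 14.7 kb upstream held 25.3, 27.1 and 21.7 normalized tags. For Klf13 and Cst3 alike, a strong region was therefore accompanied by another on the same gene.

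Cdon, the gene of a Hedgehog co-receptor, had a region 18.7 kb upstream with 37.4, 31.4 and 26.3 normalized tags (chr9:35402776-35402945). Prdm16, a zinc finger regulator of neural stem cells, had one 2.69 kb downstream with 34.4, 32.6 and 26.5 (chr4:154313339-154313528). The region 44.3 kb upstream of the zinc finger gene Zfp648 held 33.9, 39.4 and 24.6 normalized tags (chr1:154156777-154156968). The other neighbour of the Zfp648 region was Glul, the glutamine synthetase gene of astrocytes, at 247 kb. The region of Dph5, an enzyme gene of diphthamide synthesis, lay 43.3 kb upstream of it with 36.6, 36.6 and 27.9 normalized tags. The region of Cdk19, a kinase gene of the Mediator complex, lay 16.2 kb away with 38.8, 36.3 and 24.8. In these 5 regions library 3 was the lowest every time.

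Of the 25 strongest regions, the weakest by mean rank was that of the homeobox gene Dbx2, with 27.8, 24.6 and 22.9 normalized tags. The others in that group lay nearest to Kcnk1 (a potassium channel), Cldn18 (a tight junction protein), Mcm3 (a subunit of the replicative helicase), Tubb2a (a beta-tubulin), Ttyh1 (a membrane protein of neural stem cells and glia), Zc3h12a (a ribonuclease), Dusp7 (a MAP kinase phosphatase) and Slc36a4 (an amino acid transporter). They also included the regions of Elf5 (an ETS factor), Nuf2 (a kinetochore protein), Fbln2 (an extracellular matrix protein), Gpnmb (a glycoprotein), Capn9 (a protease), Psd2, Sorbs2 and Crot (a peroxisomal carnitine acyltransferase). Their mean strengths lay between 25.4 and 29.7 normalized tags. Wnt7a, a Wnt ligand of neural progenitors, was the other neighbour of the Fbln2 region, at 62.0 kb. Among the 100 strongest reproducible regions of all classes, 22 were near-gene intergenic, against 18.7% of all reproducible regions.

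**Figure D1:**
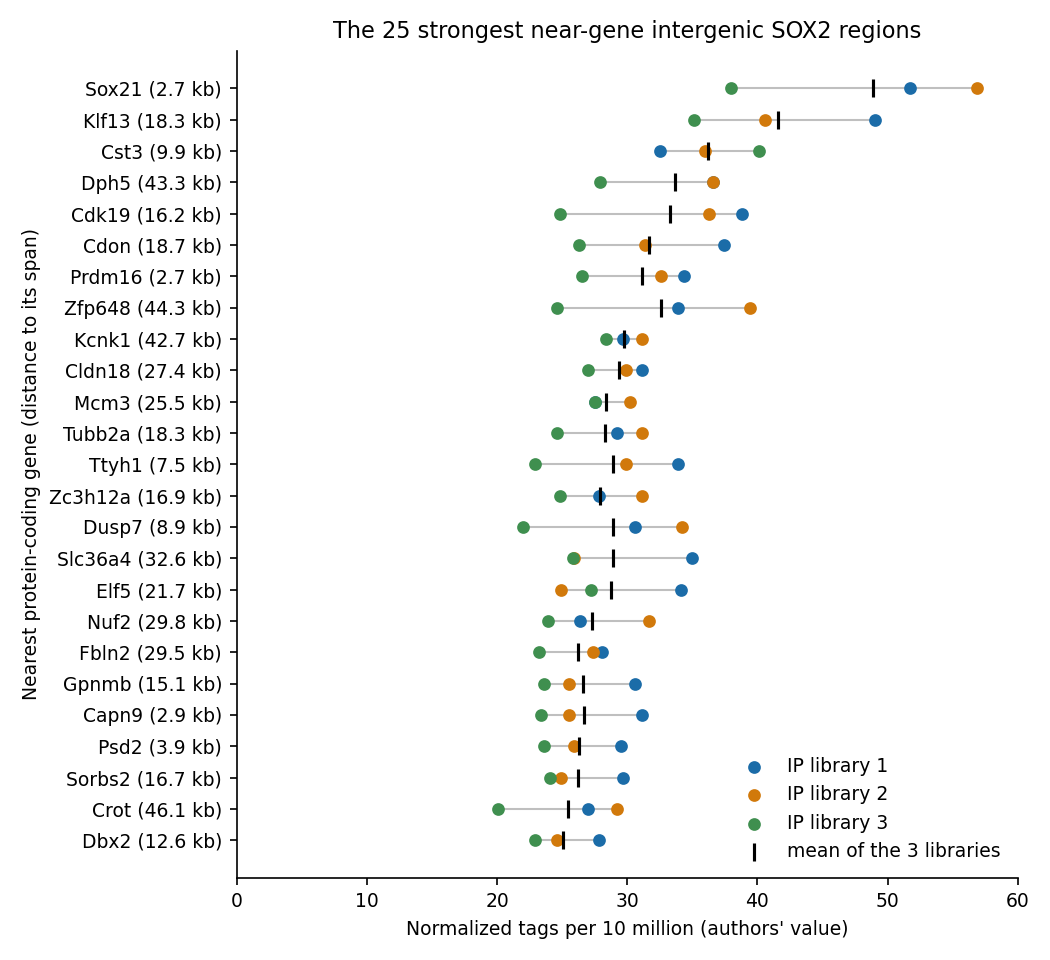
Strength of the 25 strongest near-gene intergenic regions by nearest gene (vertical axis, with the distance to the gene span) in normalized tags scaled to a common library total (horizontal axis). Points are the 3 IP libraries and the vertical tick is their mean; library 3 is lowest for Sox21 (38) and highest for Cst3 (40.1).

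At the limits of the rule the values were ordinary. The 5 regions just inside 1 kb, among them those of Trerf1, Negr1, Fam83a and Gm15517, stood at 4.17 to 9.60 normalized tags on average. The 5 just outside it, counted as gene-end, were those of Irgm1, Ubash3b, Nudt2, Rgp1 and Dbndd2, at 4.81 to 8.35. The 5 just inside 50 kb, among them those of Phyhipl, Stmnd1, Apod and Pctp, stood at 7.27 to 17.4, and the 5 just outside it, among them those of Tle3, Stmnd1, Cyp1b1 and Nrep, at 6.46 to 11.0. Stmnd1 had a pair of neighbouring regions divided by the 50 kb limit.

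Compared with the other position classes, near-gene regions were somewhat stronger than gene-end regions and much like the rest. Their median was 8.26, 8.00 and 6.93 normalized tags in libraries 1, 2 and 3, and that of gene-end regions 7.43, 7.69 and 6.45. The difference was 0.54 ± 0.265 (SD, n = 3 libraries), with near-gene regions higher in 3 of 3 (p = 0.25, exact two-sided sign-flip permutation test). Over all peaks of a library, reproducible or not, the medians differed by 0.55, 0.31 and 0 in libraries 1, 2 and 3 (p = 0.5, exact two-sided sign-flip permutation test). With 3 libraries 0.25 is the smallest p this test can give, so no comparison made this way could reach 0.05; over the 33 class comparisons made, the smallest Benjamini-Hochberg adjusted value of this exact test was 0.375.

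The gap to gene-end regions was larger among strong regions. The 90th percentile of the near-gene regions was 17.1, 16.9 and 14.1 normalized tags against 14.6, 15.1 and 12.2 at gene ends, a difference of 2.08 ± 0.370 (SD, n = 3), while the 10th percentiles were equal in every library. On average over libraries, 5.30% ± 2.34 of near-gene regions and 3.05% ± 1.22 of gene-end regions held at least 20 normalized tags (SD, n = 3). The median fold over the input was 15.4, 15.2 and 13.0 for near-gene regions and 13.3, 13.7 and 10.6 for gene-end regions. That difference of 2.00 ± 0.431 had the same direction in 3 of 3 libraries (p = 0.25, exact sign-flip permutation test). The input was at the floor of 0.5 tags that the authors set in 14.4% ± 0.644 of near-gene regions and 13.0% ± 0.934 of gene-end regions, so these folds are partly capped.

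Against intragenic regions the median did not differ in any library (8.26, 8.00 and 6.93 in both classes), and the 90th percentile was 0.647 ± 0.0808 normalized tags higher near genes (SD, n = 3). Far intergenic regions had medians of 8.53, 8.31 and 7.16 normalized tags, higher than the near-gene regions by 1 tag in each library (difference -0.27 ± 0.04, p = 0.25, exact sign-flip permutation test). This last difference was 0 when peaks had to overlap by at least 0.5 of their lengths, and -0.12 and -0.14 without IP libraries 1 and 3.

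Recovery of near-gene peaks in the other libraries differed from that of other classes by a few percentage points. The share of near-gene peaks with a partner in both other libraries was 53.7% for library 1, 53.6% for library 2 and 58.0% for library 3. The shares were 49.3%, 49.0% and 58.0% for gene-end peaks, so the difference of 2.95 ± 2.61 percentage points (SD, n = 3) was present in libraries 1 and 2 and absent in library 3 (p = 0.5, exact sign-flip permutation test). It was 0.417 points without IP library 1 and 1.91 without IP library 3. Intragenic peaks were found again less often in 3 of 3 libraries, at 50.7%, 51.6% and 56.5%, a difference of 2.14 ± 0.766 points (p = 0.25, exact sign-flip permutation test). Far intergenic peaks were found again slightly more often, at 56.4% ± 2.84 against 55.1% ± 2.52. That difference of -1.29 ± 0.340 points changed sign under several other settings, among them leaving out IP library 2, where it was 0.164.

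Relative to the sequence available, SOX2 regions were sparse between genes and dense at gene ends. The space more than 1 kb and at most 50 kb from a protein-coding span covered 617 Mb and held 2.83 reproducible regions per Mb. The density was 23.3 at gene ends, 4.21 inside genes over 1 kb from any end, and 1.57 far from genes. Single-library peaks gave the same order, with 5.05 ± 0.222 per Mb near genes, 44.0 ± 4.09 at gene ends, 7.83 ± 0.447 inside genes and 2.73 ± 0.133 far away (SD, n = 3). The 4 classes did not overlap in any library. The class with the highest density thus had the lowest median strength.

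**Figure D2:**
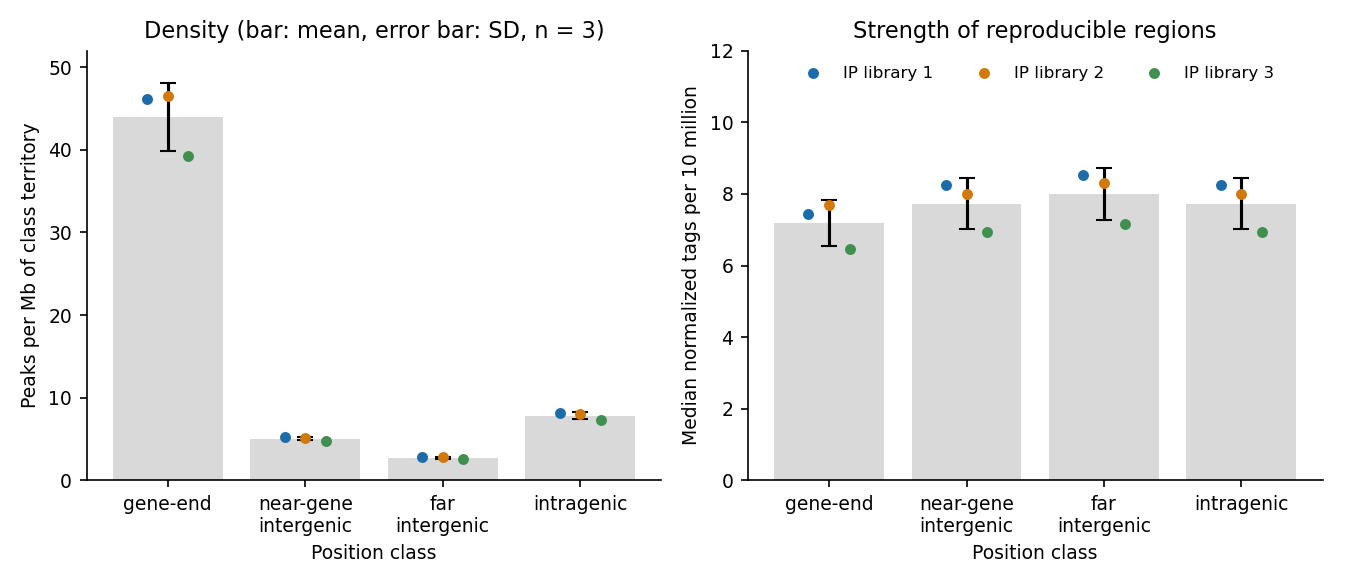
Left, peaks per Mb of sequence in each position class; right, median normalized tags of the reproducible regions of each class. Bars are means over the 3 IP libraries, error bars the SD and points the single libraries; near-gene peaks stand at 5.05 per Mb and near-gene regions at a median of 7.73.

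Within the 1 to 50 kb range, density with all sides pooled fell quickly and then stayed level. Between 1 and 5 kb there were 378 regions, or 3.31 per Mb, and in the 5 wider bands beyond it between 2.63 and 2.87 per Mb. Upstream regions alone fell from 2.90 per Mb at 1 to 5 kb to between 2.34 and 2.43 in the other bands, except for 3.19 from 30 to 40 kb. Downstream regions fell from 3.79 per Mb at 1 to 5 kb to between 2.59 and 3.10 beyond. Peaks of single libraries stood at 5.99 ± 0.367 per Mb from 1 to 5 kb and at 4.77 ± 0.253 per Mb from 5 to 10 kb (SD, n = 3). The difference of 1.22 ± 0.214 was positive in 3 of 3 libraries (p = 0.25, exact sign-flip permutation test). Strength moved the other way: the median was 7.85, 7.69 and 6.45 normalized tags from 1 to 5 kb and 8.53, 8.62 and 7.40 from 40 to 50 kb, higher by 0.855 ± 0.148 in the outer band (3 of 3 libraries, p = 0.25, exact sign-flip permutation test).

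Regions lay on both sides of genes. The gene's strand was known for 1357 regions, of which 681 were upstream of the gene start and 676 downstream of its end. The upstream side held 54.0% of that territory, so density was 2.59 per Mb upstream and 3.01 per Mb downstream. From 1 to 5 kb, single-library peaks stood at 5.35 ± 0.255 per Mb upstream and 6.66 ± 0.407 per Mb downstream, and upstream was lower in 3 of 3 libraries (difference -1.31 ± 0.210, p = 0.25, exact sign-flip permutation test). Upstream was also lower in every library from 5 to 10 kb (4.25 against 5.01 per Mb), 20 to 30 kb (4.34 against 5.18) and 40 to 50 kb (4.58 against 4.94). From 10 to 20 kb it was lower on average (4.60 against 4.96) but not in library 1 (4.98 against 4.96). Only from 30 to 40 kb was the order the opposite in 3 of 3 libraries, with 5.14 ± 0.255 per Mb upstream and 4.58 ± 0.334 per Mb downstream. Median strength was 8.26, 8.00 and 6.93 normalized tags upstream and 7.98, 7.69 and 6.69 downstream, 1 tag apart in each library. With the spans of non-coding genes added to those of coding genes, the upstream share went from 50.2% to 47.3%.

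**Figure D3:**
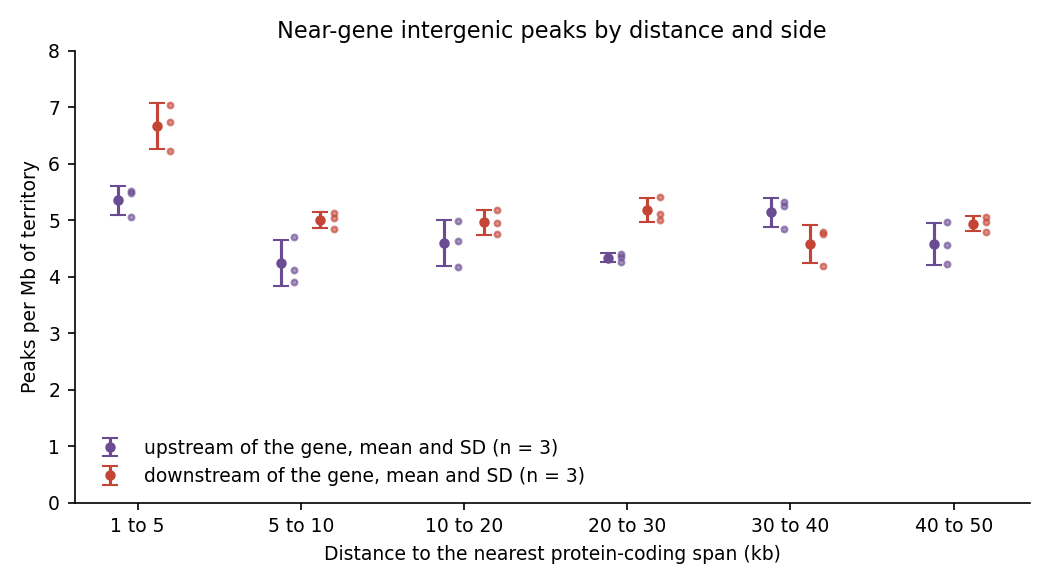
Single-library peaks per Mb (vertical axis) by distance to the nearest protein-coding span in kb (horizontal axis), upstream and downstream of the gene. Large points and bars are the mean and SD over the 3 IP libraries and small points the libraries; the downstream value from 1 to 5 kb (6.66) is above the upstream value (5.35) in each library.

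Many of these regions lay inside non-coding genes. The centre of 362 near-gene regions (20.7%) fell in an lncRNA span, and such spans covered 11.6% of the near-gene territory, a ratio of 1.78. Far from genes the shares were 23.1% of regions and 10.1% of territory, a ratio of 2.30. Regions inside lncRNA spans had medians of 8.53, 8.16 and 7.05 normalized tags against 7.98, 8.00 and 6.69 outside, a difference of 0.353 ± 0.198 (SD, n = 3, p = 0.25, exact sign-flip permutation test). Examples are the lncRNA genes Pantr1 beside Pou3f3, Sox2ot around Sox2, Sox1ot around Sox1 and Mir9-3hg, the host transcript of a miR-9 gene.

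The 1749 regions were assigned to 1412 protein-coding genes, which is 6.45% of the 21883 genes in the table. Of these genes 1148 had 1 region, 205 had 2 and 59 had 3 or more. A gene-end or intragenic reproducible region was also present at 518 of them (36.7%), against 18.1% of all protein-coding genes. The next reproducible region of any class was at a median of 36.0 kb from a near-gene region, against 34.8 kb for intragenic, 51.6 kb for gene-end and 66.4 kb for far intergenic regions. Another reproducible region lay within 10 kb of 23.6% of near-gene regions.

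Gene lists for cell types and pathways were read against that 6.45%. Of 32 astrocyte markers 15 (46.9%) were nearest to a near-gene region: Gfap, Aqp4, Aldh1l1, Gja1, Gjb6, Glul, Fgfr3, Ntsr2, Cst3, Hepacam, Ndrg2, Sox9, Mfge8, Plpp3 and Gpc5. Per Mb of near-gene sequence assigned to the list there were 17.1 regions, against 2.83 over all genes. The near-gene sequence assigned to a gene averaged 36.5 kb in this list and 28.2 kb over all genes. Between the lists it ran from 30.0 kb (Notch pathway) to 65.8 kb (Kruppel-like factors). It was 59.5 kb for neural stem and progenitor genes and 61.7 kb for the SOX family. The share of genes therefore does not compare the lists on a like footing. In single libraries 54.2% ± 1.80 of the list had a near-gene peak, against 10.4% ± 0.299 of all genes (SD, n = 3). With gene-end and intragenic reproducible regions counted too, 30 of the 32 markers had a region, against 4847 of all 21883 genes. The lists were chosen with earlier results of these data known, so the counts are descriptions.

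Among the astrocyte markers, Sox9, a SOX family regulator of astrocytes, had a region 23.5 kb away with 21.2, 21.9 and 22.7 normalized tags. Aldh1l1, a folate enzyme used as a marker of astrocytes, had one 15.5 kb upstream with 23.1, 28.9 and 16.2. Hepacam, an adhesion protein of astrocytes, had a pair of regions 8.10 and 7.59 kb upstream with means of 20.1 ± 1.91 and 13.9 ± 1.75 (SD, n = 3). Gfap, the intermediate filament of astrocytes, had a weaker region 1.38 kb upstream with 8.53, 6.77 and 7.88 normalized tags, near the median of the class. The water channel gene Aqp4 had one of 10.3 ± 1.11, the gap junction genes Gja1 and Gjb6 had strongest regions of 4.74 ± 0.985 and 14.0 ± 1.23, and Glul had one of 6.87 ± 1.20. The strongest astrocyte regions, those of Cst3, Aldh1l1, Sox9 and Hepacam, thus held over 20 normalized tags on average while those of Gja1 and Plpp3 were near the lowest values of the class.

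Of 30 neural stem and progenitor genes 16 (53.3%) had a near-gene region, with 12.3 regions per Mb, among them Sox2, Hes1, Hes5, Prom1, Fabp7, Nr2e1, Gli3, Notch1, Id1, Id4, Sox1, Sox21, Otx1 and Ptprz1. Nr2e1, an orphan nuclear receptor that keeps neural stem cells dividing, had a region 8.25 kb upstream with 27, 33.9 and 18.1 normalized tags and a further one 47.6 kb upstream with 11.6 ± 2.58. Id4, an inhibitor of basic helix-loop-helix factors, had a region 33.3 kb upstream with 26.7, 21.2 and 18.6. Sox2 itself had a region 18.8 kb downstream, inside Sox2ot, with 5.51, 9.54 and 8.12 normalized tags. The strong regions named here lay between 2.74 kb (Sox21) and 33.3 kb (Id4) from their gene, and the Sox2 region was near the median of its class.

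Of the neuron markers 1 of 30 (3.33%) had a near-gene region, close to the 6.45% of all genes. In single libraries 20% of the neuron markers had a near-gene peak in each of the 3, above the 10.4% ± 0.299 of all genes (SD, n = 3), so the direction differed between these counts. The 1 gene was Gria2, a glutamate receptor subunit, with 4.95, 5.23 and 4.78 normalized tags at 5.62 kb. Among microglia markers 1 of 20 had such regions, Sall1, with 8.48 ± 1.66 and 6.50 ± 1.11 (SD, n = 3). Among endothelial and mural markers there were 2 of 20, Erg (12.1, 6.77 and 7.16) and Cdh5 (6.33, 5.23 and 3.82), and among hepatocyte genes, taken as genes of another organ, 2 of 20, Pck1 (10.5, 10.8 and 5.97) and Tat (3.85, 4.92 and 4.54). These lists held between 0.650 and 3.26 regions per Mb, near or below the 2.83 of all genes. None of their regions reached a mean of 10 normalized tags.

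Of 20 oligodendrocyte lineage markers 7 (35.0%) had a near-gene region: Olig1, Olig2, Mbp, Bcas1, Enpp6, Sox8 and Cldn11. Sox8, a SOX gene of glia, had one 4.00 kb downstream with 24.5, 26.5 and 19.1 normalized tags. Olig1, a helix-loop-helix factor of the lineage, had one 6.71 kb away with 19, 16 and 16, and its neighbour Olig2 had regions of 11.7 ± 3.02 and 11.6 ± 2.94 (SD, n = 3). The regions of Mbp and Cldn11, which encode myelin proteins, held 4.13 ± 0.953 and 6.07 ± 1.96. Bcas1, a gene of the oligodendrocyte lineage, had a region with 14.3, 16.9 and 8.6 normalized tags, and Enpp6, a phosphodiesterase gene of the same lineage, one of 5.97 ± 0.317. The values of the list thus ran from those of Sox8 down to those of Mbp.

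**Figure D4:**
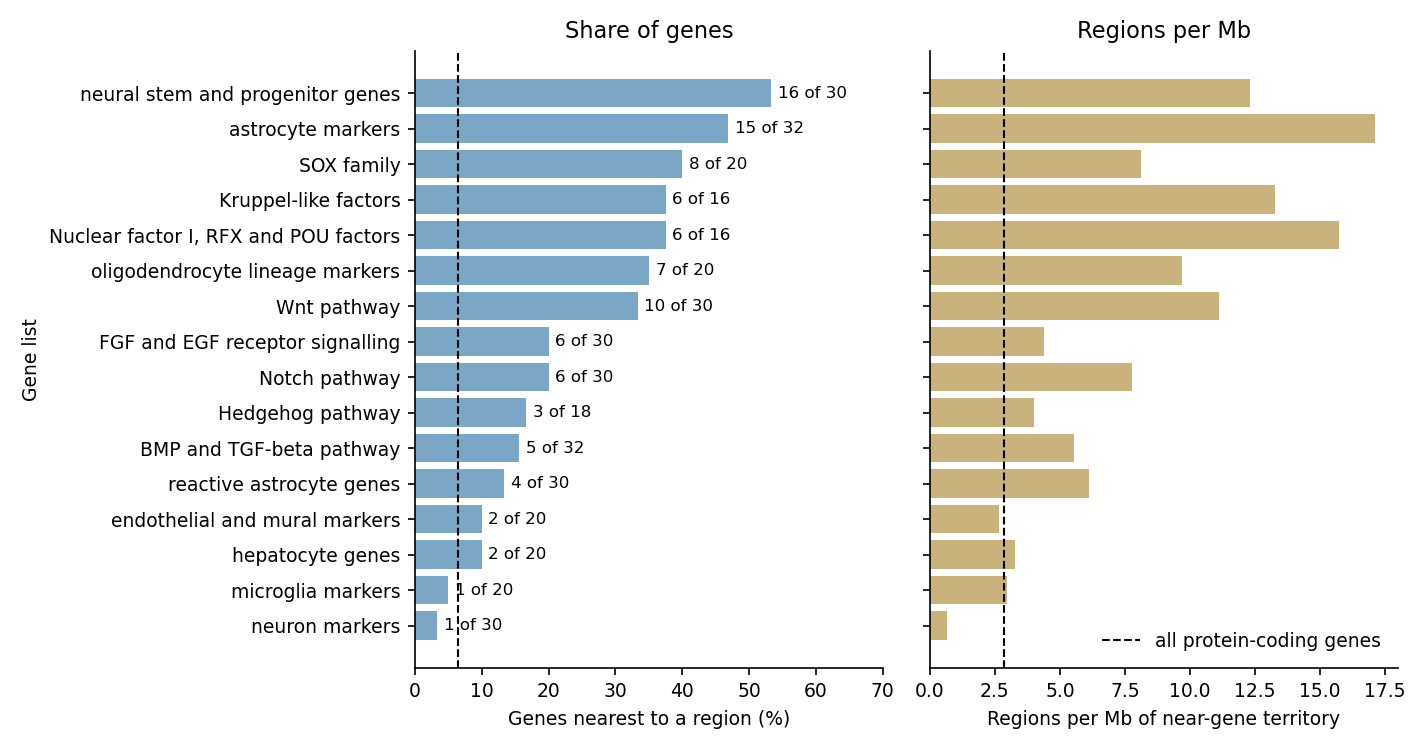
Left, the share of genes of each list that were nearest to a near-gene intergenic region, with counts; right, regions per Mb of the near-gene sequence assigned to the list. Dashed lines mark all protein-coding genes (6.45% and 2.83 per Mb); astrocyte markers stand at 46.9% and 17.1 per Mb and neuron markers at 3.33% and 0.650 per Mb, counting only regions found in all 3 libraries.

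The transcription factor families had many near-gene regions. In the SOX family 8 of 20 genes had one (40%, 8.11 regions per Mb): Sox1, Sox2, Sox5, Sox8, Sox9, Sox11, Sox13 and Sox21, some of which are also in lists above. In the list of nuclear factor I, RFX and POU factors there were 6 of 16 (37.5%, 15.8 per Mb): Nfib, Rfx3, Pou3f1, Pou3f2, Pou3f3 and Pou3f4. Pou3f2, a POU factor of neural progenitors, had a pair of regions 6.79 and 5.79 kb upstream with 22.3, 13.5 and 17.9 and with 15.1, 18.5 and 11 normalized tags. Nfib, a nuclear factor of gliogenesis, had a pair 26.8 and 26.2 kb away with 12.6 ± 1.06 and 12.1 ± 2.58 (SD, n = 3). All 4 members of the Pou3f family thus had at least 1 region. Among Kruppel-like factors there were 6 of 16 (37.5%, 13.3 per Mb): Klf3, Klf7, Klf9, Klf11, Klf13 and Klf15.

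Of the signalling pathways, Wnt had the most genes with a near-gene region, 10 of 30 (33.3%, 11.1 regions per Mb). They were the ligands Wnt7a and Wnt7b, the receptor Fzd9, the secreted inhibitors Dkk3, Sfrp1 and Sfrp2, the destruction complex genes Axin2 and Gsk3b and the nuclear factors Tcf7l2 and Lef1. Wnt7b had a region with 24.2, 19.7 and 12.7 normalized tags at 31.8 kb, and Wnt7a one with 16, 16.3 and 15 at 17.8 kb. These ligand genes had the highest values of the pathway, though the Wnt7b values spread widely between libraries. Axin2, itself a common Wnt target, had 3 regions of 8.81 ± 1.94, 8.79 ± 0.380 and 6.45 ± 0.715.

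In the Notch pathway 6 of 30 genes had a near-gene region (20.0%, 7.78 per Mb): the receptor Notch1, the ligand Dll4 and the targets Hes1, Hes5, Hey1 and Nrarp. Hes5, a repressor that keeps progenitors undifferentiated, had one 2.17 kb upstream with 17.3, 20.6 and 12.4 normalized tags, and Notch1 one 31.9 kb upstream with 18.4, 15.1 and 13.4. In FGF and EGF receptor signalling there were also 6 of 30 (4.40 per Mb): the receptors Fgfr1, Fgfr2 and Fgfr3, and Spry2, Etv1 and Sos1 downstream. Their strongest regions held 10.6 ± 1.99 (Etv1) and 9.74 ± 1.77 (Fgfr3) normalized tags, lower than the strongest of the Wnt and Notch genes.

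Of 18 Hedgehog genes 3 had a region (16.7%, 4.01 per Mb): Cdon, the receptor Ptch1 with 5.51, 8.62 and 7.40 normalized tags at 11.9 kb, and the transcription factor Gli3. Of 32 genes of the BMP and TGF-beta pathway 5 did (15.6%, 5.55 per Mb): the ligand Bmp7 and the targets Id1, Id2, Id3 and Id4, which make up the whole Id family. Id3 had 3 regions, the strongest 3.15 kb upstream with 13.5, 9.23 and 11.5 normalized tags. Of 30 reactive astrocyte genes 4 had a region (13.3%, 6.12 per Mb), among them Socs3, a cytokine signalling inhibitor, with 23.4, 26.8 and 19.8 normalized tags 26.2 kb downstream. Ednrb had a pair of regions 36.5 and 35.8 kb downstream, the stronger with 25, 17.5 and 17.7 and the weaker the one whose Gm35116 sequence is printed above. Gfap and Aspg were the others of the 4.

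Some genes were surrounded by several regions. Pou3f3, a POU factor gene, had 5, of which 4 lay upstream and inside the lncRNA gene Pantr1 and 1 lay downstream inside Pantr2. The strongest held 19.8, 9.23 and 14.3 normalized tags and the weakest 5.23, 6.77 and 5.49. Pou3f3 had no gene-end or intragenic reproducible region, so these 5 were all the reproducible regions assigned to it within 50 kb. Klf15 also had 5, from 4.23 to 14.3 normalized tags on average, and 4 of them, with the Aldh1l1 region named above, lay in the space between Klf15 and Aldh1l1. Kcnk1 had 4, the strongest with 29.7, 31.1 and 28.4. Neurog1, a proneural factor gene, had 4 from 7.24 to 19.9 on average, and Disp3, a gene related to the Hedgehog release protein Dispatched, had 4 from 7.16 to 18.8.

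The gene Rhbg, an ammonium transporter, also had 4 regions, and these lay around the microRNA gene Mir9-1 that stands between Rhbg and Mef2d. miR-9 is a microRNA of neural progenitors and neurons made from 3 genes, and its loci were looked at after these values were seen. RefSeq gives the same mature arms at Mir9-1 and Mir9-3, printed with the seed (bases 2 to 8) in capitals.
miR-9-5p: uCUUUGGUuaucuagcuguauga
miR-9-3p: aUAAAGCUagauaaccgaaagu

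Within 50 kb of the Mir9-1 hairpin (chr3:88215598-88215686) stood 6 near-gene regions, 4 on the 3′ side and 2 on the 5′ side. The strongest, 16.7 kb to the 3′ side, held 20.1, 24 and 20.1 normalized tags. The one 9.88 kb to the 5′ side held 19, 18.5 and 13.4, and the one 37.6 kb away is the 1700113A16Rik region whose sequence is printed above. The remaining 3 averaged 13.2, 9.41 and 6.83 normalized tags, so 5 of the 6 were above the median of 7.59.

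At Mir9-3 (chr7:79505264-79505353) there were 2 near-gene regions. The stronger lay 7.36 kb to the 5′ side with 21.2, 23.1 and 18.1 normalized tags, and the weaker lay 0.430 kb from the hairpin inside Mir9-3hg with 8.26, 7.69 and 7.40. Mir9-2 stands farther from coding genes, and its 2 regions, of 15.2 ± 2.60 and 20.0 ± 1.07 normalized tags (SD, n = 3), were far intergenic. The strongest region at each of the 3 miR-9 genes thus averaged 21.4, 20.0 and 20.8 normalized tags for Mir9-1, Mir9-2 and Mir9-3.

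**Figure D5:**
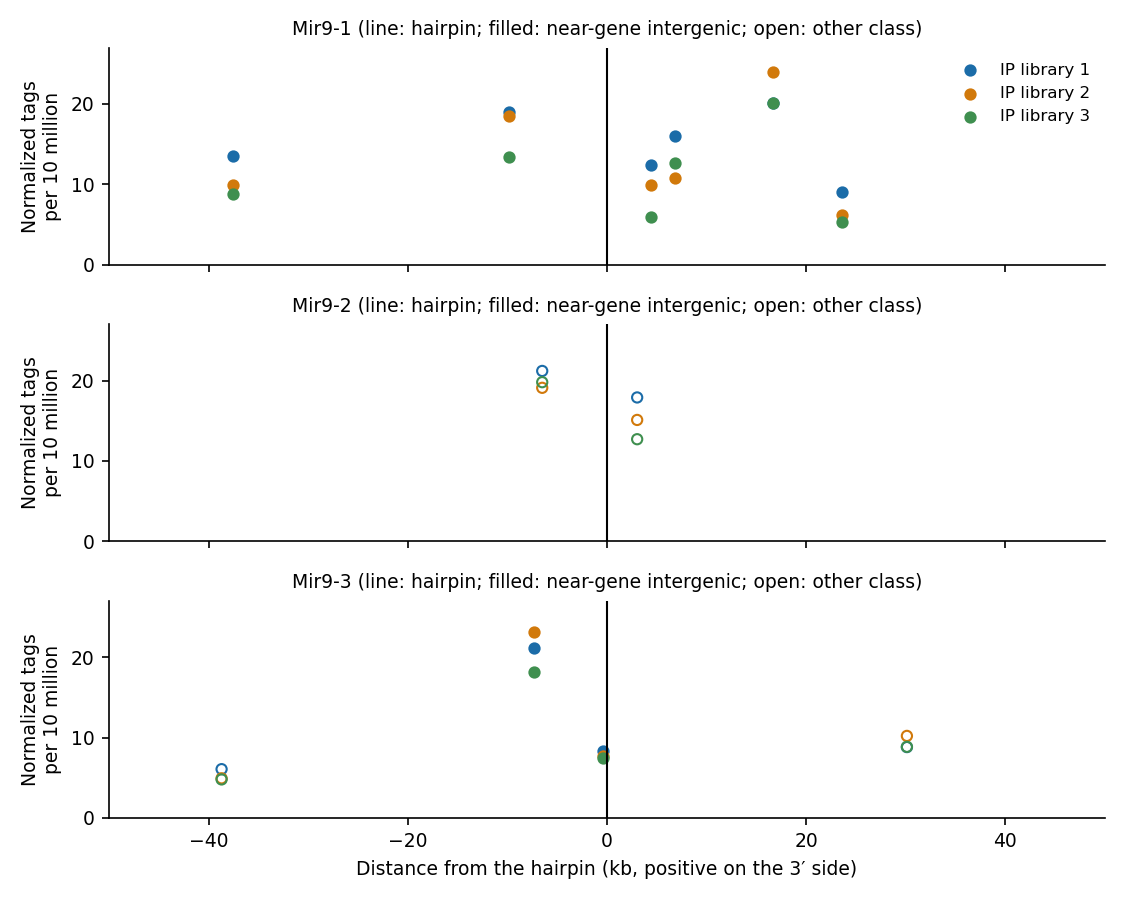
Reproducible regions within 50 kb of the 3 miR-9 hairpins, by distance from the hairpin in kb (horizontal axis) and normalized tags (vertical axis), with 1 point per IP library. Filled points are near-gene intergenic regions, 6 at Mir9-1 and 2 at Mir9-3, and open points are regions of other classes.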

How the data were processed

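Peaks came from 3 SOX2 IP libraries, each called against the same input. Bowtie 1.0.0, HOMER 4.7 and mm10 are given in the submitters' processing notes. The authors ran peak calling per library, per the file headers, with HOMER findPeaks in factor mode, at 4-fold over the input and over the surrounding 10 kb, a Poisson p of 0.0001 and a false discovery rate of 0.001, with tags capped at 1 per base for IP libraries 1 and 2 but at 2 for IP library 3. That different cap can affect how library 3 compares with the others. The normalized tags are the authors' signal, scaled to 10000000 tags per library. The fold over the input is the authors' ratio. The focus ratio, a fraction, and the peak score are deposited values that describe a peak; the score was used only to pick the stronger 0.5 of the peaks as an alternative.

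The strongest peak of a region in a library gave its value there. Gene spans, strand and promoter windows came from RefSeq tables of GRCm38.p6, with strand for 17491 of the 21883 protein-coding genes. Medians per library were compared by an exact two-sided sign-flip permutation test over the 3 libraries, since regions of 1 library are not replicates. The region finder was tested on simulated data. Named genes are those of the 25 strongest regions by mean rank, the 2 strongest of each of 16 lists, the 6 genes with the most regions and the 5 regions at each distance limit; other list genes with a region are named to account for the counts, with values for some chosen after they were seen. A few genes chosen this way are not reported here. The members and lists were chosen with earlier results of these data known. The planned motif search at all regions was not run, as no genome was used here; motifs were searched in promoter windows instead. Alternatives changed the peak threshold, overlap, libraries, distance limits, gene spans and summary. Python 3.11.15, numpy 2.4.6, pandas 2.3.3 and matplotlib 3.10.9 were used.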

Additional observations from a re-analysis of the deposited data

How the results depend on the processing

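The near-gene regions numbered 1090, at 924 genes, with only peaks of at least 8-fold over the input, and 1079, at 904 genes, with the stronger 0.5 of each library's peaks; their median then rose to 8.91 and 9.85 normalized tags. Leaving out each IP library in turn gave 1973 to 2137 regions at 1562 to 1664 genes, since a region then needed only 2 libraries. The share of reproducible regions was 14.7% from 5 kb on, 24.6% up to 100 kb and 21.6% with spans of all RefSeq genes, under which the upstream share was 47.3%. Near-gene minus intragenic medians were -0.277 at 8-fold, 0.08 in the stronger 0.5, -0.197 with all spans and -0.027 as a mean of log2 values. Near-gene minus far intergenic medians were 0 with an overlap of 0.5 of both lengths, and -0.255 to -0.12 leaving out 1 library. Near-gene minus far recovery turned positive with that overlap (0.0688), up to 100 kb (0.493) and with all spans (1.73), and ran from -1.97 to 0.164 leaving out 1 library; the cause was not tested. Near-gene minus gene-end medians of reproducible regions, averaged over libraries, stayed positive under every alternative run, from 0.353 to 0.73. Astrocyte markers with a region numbered 11 to 20 of 32. The 0.25 floor of the permutation test means that none of these directions passed a threshold. Depth limits weak regions, which lie close to the minimum of 13 to 16 tags. With all RefSeq spans no promoter window was touched, so that share had no value, and the planned motif window of 50 bases was not run. Position classes were compared within each IP library. No pairing of IP and input libraries was possible, because a single input served all IP libraries and enters only as a column beside them.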
